A study of Homo sapiens with 32 samples.

Results

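The genes described here are the renal tubule solute carriers, taken as every protein-coding gene of the RefSeq table for GRCh38 whose symbol starts with SLC4A, SLC5A, SLC6A, SLC7A, SLC9A, SLC13A, SLC16A, SLC17A, SLC22A or SLC34A. These 10 families hold 117 of the 20037 protein-coding genes. The symbol rule also takes in SLC4A1AP and SLC7A6OS, named for a neighbour or partner and not carriers themselves. A gene was given every listed N6-methyladenosine (m6A) peak that overlapped its gene body by at least 1 bp, in 16 peak lists from methylated RNA immunoprecipitation and sequencing (MeRIP-seq), 1 list per immunoprecipitated (IP) library.

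The libraries came from 2 cell lines of kidney origin. RPTEC is an hTERT-immortalized line of renal proximal tubule epithelium, used by the study as a surrogate for normal tubule, and 786-O is a clear cell renal cell carcinoma (ccRCC) line. Each was profiled as the parental line (WT), as the CRISPR/Cas9 knockout clones SETD2KO-1 and SETD2KO-2, and as SETD2KO-1R, a clone derived from SETD2KO-1 after re-expression of full-length SETD2 from a FLAG-tagged transgene, with 2 IP libraries for each of these 4 lines and no drug treatment. SETD2 writes the histone mark H3K36me3, and the question of the series is how its loss moves m6A. SETD2KO below means both knockout clones (4 libraries per cell line), and SETD2-expressing means WT and SETD2KO-1R (also 4). Knockout and rescue lines are single clones, the 8 libraries of a cell line share that line, and the 2 cell lines were grown in different media, so p-values here measure the spread between libraries and not between donors. The names of the lists carry a different tag in each cell line, so any difference in handling and the cell line cannot be told apart.

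The proximal tubule recovers most of the filtered glucose, phosphate, bicarbonate, amino acids and organic acids. Sodium-coupled carriers of the SLC5, SLC34, SLC6, SLC13 and SLC9 families take solutes up from the lumen, carried by the sodium gradient that the sodium pump keeps up, and SLC4, SLC7, SLC16 and SLC22 carriers pass bicarbonate, amino acids, lactate and organic ions across the basolateral or the luminal membrane. m6A is a base modification of RNA that is read by proteins acting on splicing, export, decay and translation. A peak list says only where m6A signal in the IP rose over the input. A gene without a peak may be unexpressed, unmethylated or below the peak caller's threshold, and a lower share of cells with the RNA and less RNA per cell cannot be told apart. Which of these applied was not tested.

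The lists held 19249 to 31207 peaks in RPTEC and 25710 to 39670 in 786-O, and read depth is unknown because they carry no counts. Every comparison of the number of peaks is therefore made per 10000 listed peaks, and every comparison of presence is also given for lists of equal length where that changes a call. SETD2 itself, the edited gene, carried peaks in all 16 libraries. In RPTEC it had 4 to 6 peaks in SETD2KO and 7 to 11 in SETD2-expressing libraries, and in 786-O 4 to 10 and 7 to 10 (p = 0.00449 per 10000 listed peaks by exact permutation test within cell lines, adjusted p = 0.247), which does not check the edit itself. Of the markers of proximal tubule, PAX8, CDH6 and GGT1 had a peak in every library. Only 2 of 8 RPTEC libraries had a GGT1 peak that overlapped no other protein-coding gene, where 8 of 8 786-O libraries did. ANPEP had a peak in 8 of 8 RPTEC and 2 of 8 786-O libraries. LRP2, AQP1, MME and HNF4A had none in any, CUBN had 1 in 1 786-O library and CDH16 had peaks in 1 RPTEC and 2 786-O libraries. Of 6 markers of distal nephron and collecting duct, 5 had no peak in any library. Of the markers of ccRCC and general epithelium, EPAS1, KRT8, KRT18 and CDH2 had a peak in every library, VIM in 6 of 8 RPTEC and 8 of 8 786-O libraries, KRT19 in 8 of 8 and 2 of 8, NDUFA4L2 (COXFA4L2 in the table) in 0 and 1, and CA9 and CDH1 in none.

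Of the 117 genes, 55 (47.0%) had no listed peak in any library, 14 had a peak in 1 to 3 libraries and 48 (41.0%) in 4 or more, against 33.0% without a peak and 57.8% in 4 or more libraries over all protein-coding genes. Both cell lines had peaks in 36 of the carriers, RPTEC alone in 10 (8.55%) and 786-O alone in 16 (13.7%), where 4.94% and 6.16% of all protein-coding genes had peaks in that cell line alone. A library had a peak in 21 to 38 of the carriers in RPTEC (mean 30.2 ± 5.18, SD, n = 8) and in 36 to 41 in 786-O (37.5 ± 2.00, SD, n = 8). Ranges of the 2 cell lines overlapped, and the same libraries had peaks in 7739 to 9670 and in 8950 to 10265 of all protein-coding genes.

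**Figure D1:**
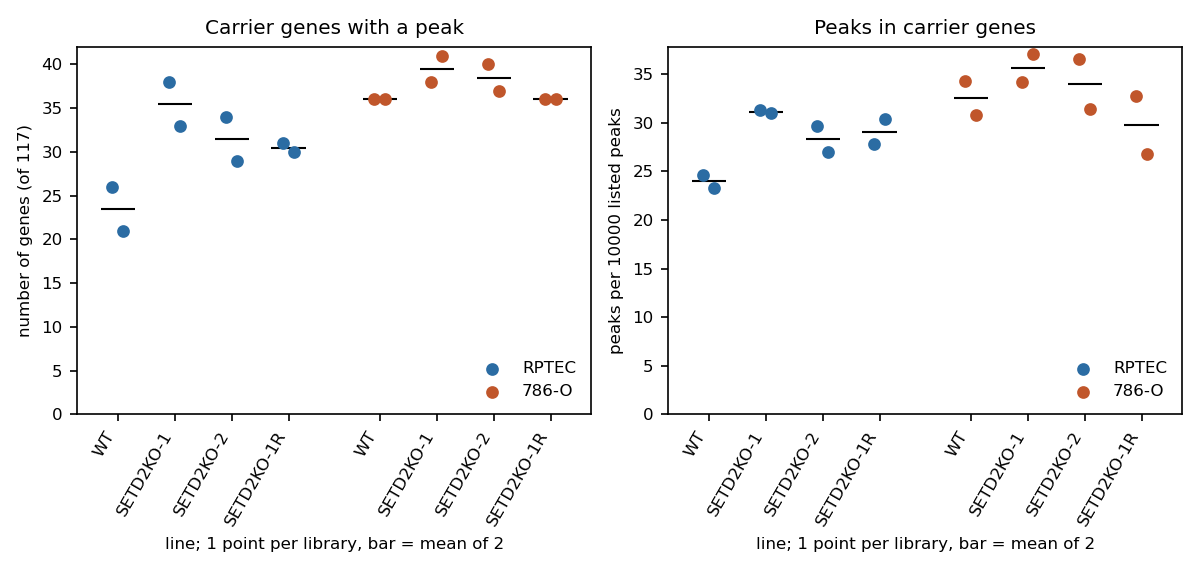
Number of carrier genes with a peak (left, of 117) and peaks in carrier genes per 10000 listed peaks (right), by line of each cell line; each point is 1 library and each bar the mean of 2. The 786-O libraries had peaks in 36 to 41 carriers and the RPTEC libraries in 21 to 38.

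The families differed in how often they carried peaks. They also differed in gene length, with a median of 73433 bp in SLC9A and 41088 bp over all 117 genes. Peaks that also lay in another gene are counted here. Peaks in 4 or more libraries were found for 7 of 9 SLC9A genes, sodium-proton exchangers, and for 8 of 14 SLC16A genes, which move lactate and other monocarboxylates. The same held for 6 of 11 SLC4A bicarbonate carriers, 6 of 12 SLC5A sodium-solute cotransporters and 5 of 14 SLC7A amino acid carriers, and for 4 of 19 SLC6A, 2 of 5 SLC13A, 3 of 9 SLC17A, 6 of 21 SLC22A and 1 of 3 SLC34A genes. Neurotransmitter carriers are among the 13 of 19 SLC6A genes that had no peak, and 13 of 21 SLC22A organic ion carriers had none either.

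Of 28 carriers listed for their roles in the tubule or in cells generally and described whatever their values, 10 had no listed peak in any of the 16 libraries, 2 had one in 1 to 3 libraries and 16 in 4 or more. SLC5A1 (SGLT1, glucose), SLC34A1 and SLC34A2 (sodium-phosphate cotransporters), SLC22A6 and SLC22A8 (the organic anion carriers OAT1 and OAT3), SLC22A12 (URAT1, urate), SLC13A2 (citrate and other dicarboxylates), SLC7A9 (cystine and basic amino acids), SLC6A19 (neutral amino acids) and SLC17A5 (sialin, a lysosomal carrier) were those without a peak. SLC22A2, the organic cation carrier OCT2, had 1 peak in 1 RPTEC library and none elsewhere. SLC7A7, which exports basic amino acids, had 1 peak in each of 3 786-O libraries and none in RPTEC.

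In contrast, 10 carriers had a peak in all 16 libraries, 8.55% of the genes, where 23.1% of all protein-coding genes did. They were SLC5A3 (myo-inositol), SLC5A6 (the multivitamin carrier of biotin and pantothenate), SLC6A6 (taurine), SLC6A8 (creatine), SLC7A1 (arginine and lysine), SLC7A5 (LAT1, large neutral amino acids), SLC9A3 (NHE3), SLC9A7 (an exchanger of the Golgi network), SLC16A1 (MCT1, lactate and pyruvate) and SLC16A3 (MCT4, lactate export). Several are carriers that most cells use and are not particular to the tubule; SLC9A3 is the luminal exchanger of the proximal tubule. Its peaks numbered 3 to 7 per RPTEC library (median 5) and 4 to 7 per 786-O library (median 6). All 16 lists held the end of SLC9A3 (chromosome 5, 470935 to 476004), with its strongest peak ranked high in each, at the 88.2nd percentile of the list's scores in the lowest library. That stretch also holds SLC9A3-OT1, and every one of the 85 peaks of SLC9A3 also lay in another gene, with SLC9A3-AS1 along all 3 of its regions; since the lists carry no strand, reads from these genes cannot be told apart. For the same reason every peak of SLC5A3 also lay in MRPS6, and all but 1 of those of SLC5A6 in a neighbouring gene. SLC6A8 has near-identical copies elsewhere in the genome, among which reads can be split.

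SLC6A6 varied most among these 10. It had 2 to 12 peaks in RPTEC (median 5) and 1 to 15 in 786-O (median 10), low in 1 replicate of a line and high in the other for several lines, and the means of the cell lines differed by less than that spread (adjusted p = 0.712 by exact permutation test). SLC7A1 held 2 to 4 peaks in RPTEC and 2 to 5 in 786-O, and every library called its regions at 29513579 to 29514829 and 29557742 to 29558921 of chromosome 13.

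**Figure D2:**
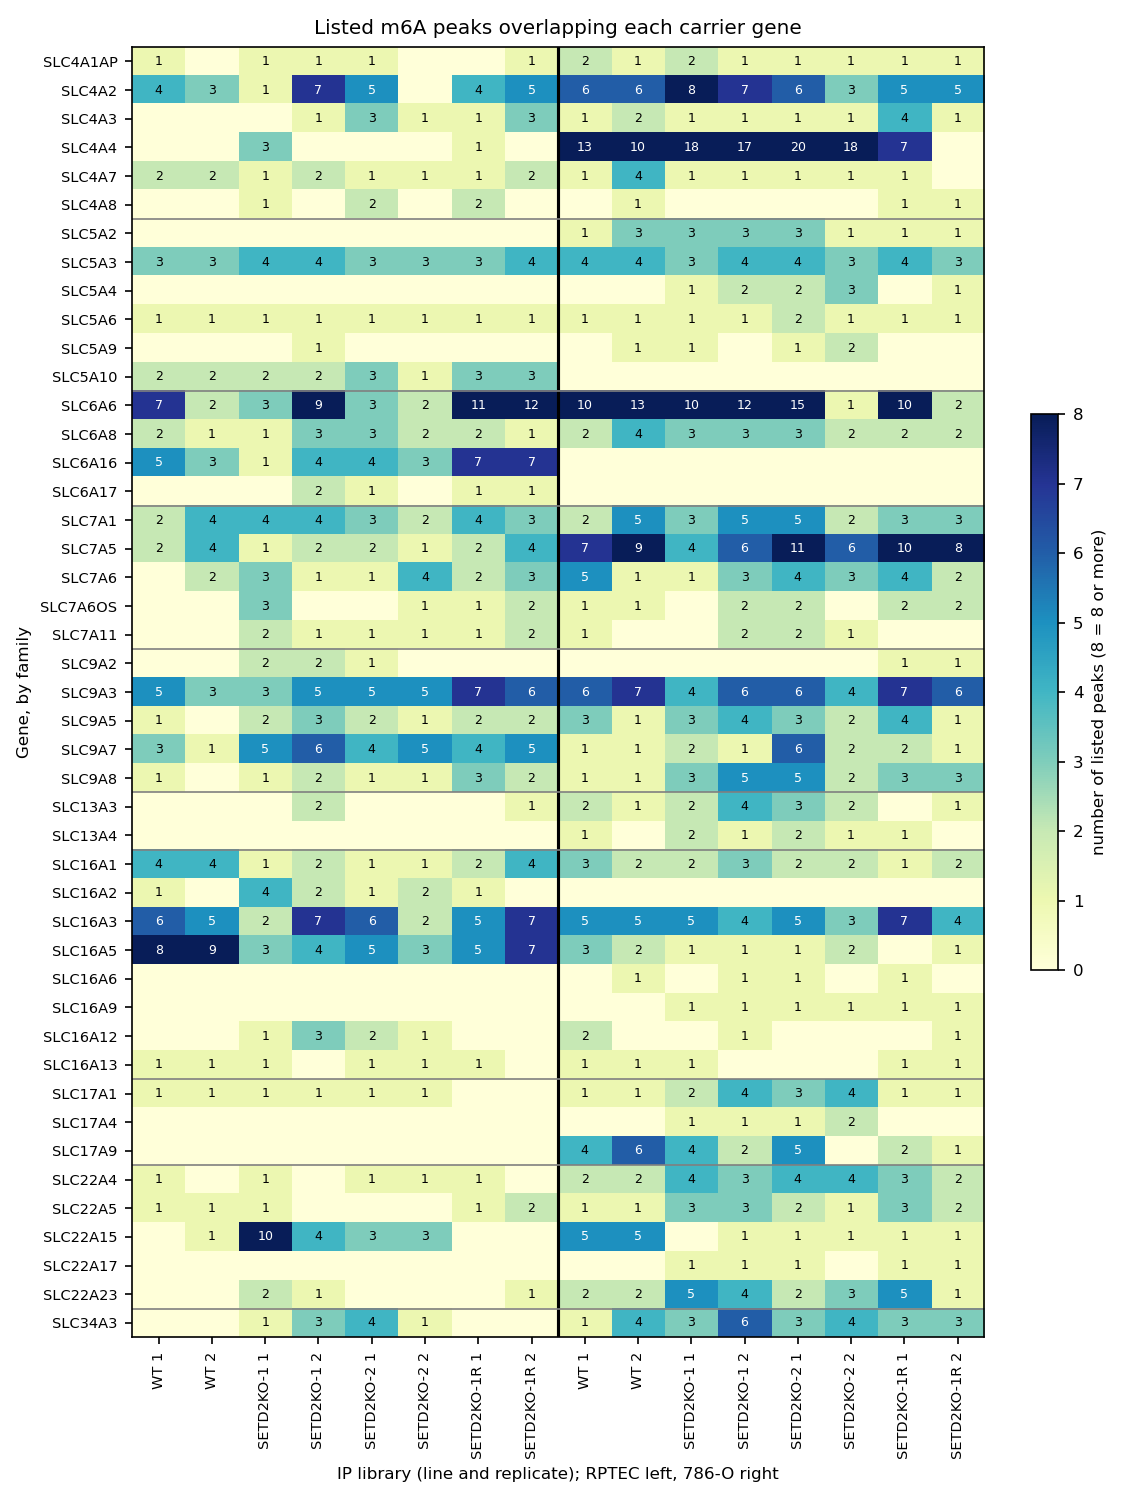
Number of listed peaks (colour and printed number) overlapping 45 of the 48 carrier genes with a peak in 4 or more libraries (rows, by family) in each of the 16 IP libraries (columns; RPTEC left of the line, 786-O right). Rows filled across all columns are the 10 genes with a peak in every library; SLC5A10 and SLC6A16 are filled on the RPTEC side only and SLC5A2 on the 786-O side only.

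Peaks at the start of a gene bear on its promoter-proximal sequence. Of the 117 carriers, 86 had a start window in the RefSeq promoter table (300 bases around a transcription start, 116 windows in all), and 17 of these genes had a peak over at least 1 window in at least 1 library. The windows with a peak in 14 or more libraries, and as an example of a window called in 1 cell line that of SLC22A4, are printed as 5′ to 3′ sequence on the gene's strand from RefSeq (GRCh38.p14), with the 100 bases before the annotated start in lower case and the first 30 transcribed bases in capitals.
SLC5A6 start, chr2:27212239-27212368, minus strand: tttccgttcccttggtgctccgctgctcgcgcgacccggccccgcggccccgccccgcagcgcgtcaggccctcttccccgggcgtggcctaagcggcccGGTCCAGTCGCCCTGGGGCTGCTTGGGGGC
SLC16A3 start, chr17:82234799-82234928, plus strand: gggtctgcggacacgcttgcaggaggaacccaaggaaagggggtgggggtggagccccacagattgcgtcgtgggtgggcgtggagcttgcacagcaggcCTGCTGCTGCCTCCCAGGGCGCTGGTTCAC
SLC6A8 start, chrX:153687826-153687955, plus strand: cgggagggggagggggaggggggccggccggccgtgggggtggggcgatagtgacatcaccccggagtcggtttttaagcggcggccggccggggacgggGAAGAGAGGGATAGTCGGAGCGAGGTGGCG
SLC7A5 start, chr16:87869478-87869607, minus strand: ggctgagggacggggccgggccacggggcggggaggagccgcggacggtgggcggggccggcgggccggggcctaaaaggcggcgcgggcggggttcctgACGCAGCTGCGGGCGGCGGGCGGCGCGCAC
SLC22A4 start, chr5:132294294-132294423, plus strand: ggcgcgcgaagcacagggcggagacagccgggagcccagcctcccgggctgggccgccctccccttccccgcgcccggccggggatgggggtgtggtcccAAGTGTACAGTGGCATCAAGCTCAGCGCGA
A peak overlapped the window of SLC5A6 in 16 of 16 libraries, those of SLC16A3 (1 of 5 windows of that gene) and SLC6A8 in 15 each and that of SLC7A5 in 14, all 8 of 786-O and 6 of 8 RPTEC. All but 1 of the peaks of SLC5A6 also lay in a neighbouring gene, and the lists carry no strand. The SLC16A3 window lies inside the gene body, which runs from 82217934 to 82240086. The most upstream window of SLC16A3, printed from 82228335, had a peak in 0 libraries. The window of SLC22A4 was overlapped in 8 of 8 786-O and 0 of 8 RPTEC libraries; the wider merged region there, from 132293520 to 132295578 on chromosome 5, was called in 8 and 2. Over the 130 bases as printed, the counts were 8 RPTEC and 7 786-O libraries for SLC5A6, 7 and 8 for SLC16A3, 7 and 7 for SLC6A8, 6 and 8 for SLC7A5 and 0 and 7 for SLC22A4. GGAC, the core of the usual m6A sequence, occurs 2 times in the printed SLC7A5 sequence and 1 time each in those of SLC16A3 and SLC6A8. All of these lie in the lower-case bases before the annotated start, and none in the transcribed bases in capitals. On the opposite strand only, it occurs 1 time each in those of SLC5A6 and SLC22A4. Of all RefSeq start windows trimmed to this length, 38.3% hold it on the printed strand and 37.5% on the other.

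The first comparison asked which carriers carried peaks in one cell line and not the other. SLC5A10 (SGLT5, a kidney carrier of mannose and fructose) and SLC6A16 (an orphan member of the neurotransmitter carrier family) had a peak in 8 of 8 RPTEC and 0 of 8 786-O libraries, and SLC5A2 (SGLT2, the main glucose carrier of the early proximal tubule) in 0 of 8 and 8 of 8. Each had an adjusted p of 0.0120 by two-sided Fisher's exact test, adjusted by Benjamini-Hochberg over the 11574 protein-coding genes with a peak in at least 4 libraries. That is 2 of 48 carriers higher in RPTEC and 1 of 48 higher in 786-O, where 0.804% and 0.492% of all genes tested were called. Without 1 library the count of 3 rose to 5 in 4 of the 16 fits and to 6 without 786-O WT replicate 2. With libraries as the units the smallest p this test can give is 0.000155, and with the 4 lines of each cell line as units it would be 0.0286. SLC17A9, the vesicular nucleotide carrier, had a peak in 0 of 8 and 7 of 8 libraries, and its adjusted p of 0.0545 missed the threshold.

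Gene bodies that overlap bear on all 3. The peaks of SLC5A10, on chromosome 17 from 18950676 to 19022565, numbered 1 to 3 per RPTEC library (median 2), and none lay outside a neighbouring gene. Its region from 18971006 to 18971954, which also lies in FAM83G, was the only region of the carriers called in all 8 libraries of one cell line and none of the other (adjusted p = 0.0187 by Fisher's exact test over 38752 merged regions). By that test 1 of 123 carrier regions was higher in RPTEC and 0 of 123 in 786-O, against 0.390% and 0.441% of all regions tested, and 8 and 21 carrier regions had an unadjusted p under 0.05, where 3.02% and 7.09% of all regions tested did. With lists of equal length 0 carrier regions were called, and without 786-O SETD2KO-1R replicate 2, a library with no peak in SLC4A4, 11 were, 3 of them higher in RPTEC and 8 in 786-O. SLC6A16, on chromosome 19 from 49289638 to 49340330, had 1 to 7 peaks per RPTEC library (median 4), the most in both SETD2KO-1R libraries. Of its 34 peaks, only 14 overlapped no other gene, and some of the rest lay in CD37. A peak in SLC6A16 alone was found in 7 of 8 RPTEC libraries, most often in the region from 49331169 to 49332024. With peaks that overlap any other gene left out, 0 carriers were called (adjusted p of 0.0551 by the same test for SLC6A16 and SLC5A2, with 7 of 8 libraries each).

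SLC5A2, on chromosome 16 from 31483123 to 31490769, had 1 peak in 4 786-O libraries and 3 in the other 4. Its region from 31488724 to 31489344, which no other gene overlaps, was called in 7 of 8 786-O and 0 of 8 RPTEC libraries (adjusted p = 0.0655 by Fisher's exact test). The region at its end, from 31490679 to 31491201, was called in 8 of 8 786-O and also in 6 of 8 RPTEC libraries, whose peaks there stopped short of SLC5A2 and lay in RUSF1. That end region thus did not separate the cell lines, while the inner one did in all but 1 786-O library. With lists of equal length the adjusted p of SLC5A2 was 0.179, and SLC5A10 and SLC6A16 were still called. The call of SLC5A2 was also lost where a peak's summit had to lie in the gene body. With the lower-scored 50% of every list left out, the calls of SLC5A2 and SLC5A10 were both lost.

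The number of peaks per gene separated more carriers. Per 10000 listed peaks, 4 of 48 carriers were higher in RPTEC (8.33%) and 6 of 48 in 786-O (12.5%), where 4.76% and 4.06% of all genes tested were called by the same exact permutation test, adjusted over all genes. Whatever the test, 21 carriers were higher in RPTEC and 27 in 786-O, and the median difference over the 48 was -0.0731 peaks per 10000 against 0.000705 over all genes tested. SLC16A5, SLC9A7, SLC17A9, SLC22A4 and SLC22A23 are named for this call, after their values were seen.

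Higher in RPTEC, beside SLC5A10 and SLC6A16, were SLC16A5 and SLC9A7. SLC16A5 (a member of the monocarboxylate carrier family) had 3 to 9 peaks per RPTEC library (median 5) and 0 to 3 in 786-O (median 1). Per 10000 listed peaks that is 2.10 ± 0.912 against 0.428 ± 0.295 (SD, n = 8 each; adjusted p = 0.00547 by exact permutation test), and its 2 WT libraries of RPTEC were the highest of all. SLC9A7 had 1 to 6 peaks in RPTEC (median 4.5) and 1 to 6 in 786-O (median 1.5), overlapping groups with means of 1.58 ± 0.652 and 0.588 ± 0.409 per 10000 (SD, n = 8 each; adjusted p = 0.0455 by exact permutation test). The call of SLC9A7 was lost in 13 of the 16 fits that left out 1 library. It was also lost with replicate number as a block, with unscaled counts and with a filter of at least 1 library.

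Higher in 786-O were SLC5A2, SLC4A4, SLC7A5, SLC17A9, SLC22A4 and SLC22A23. SLC4A4, the electrogenic sodium bicarbonate cotransporter NBCe1 through which the proximal tubule returns bicarbonate to the blood, held the most. It had 0 to 20 peaks per 786-O library (median 15) and 0 to 3 in RPTEC (median 0), a mean of 3.83 ± 2.05 against 0.195 ± 0.431 per 10000 listed peaks (SD, n = 8 each; adjusted p = 0.0218 by exact permutation test). Of the 786-O libraries, 7 had 7 or more peaks and 1, SETD2KO-1R replicate 2, had none. The gene body is long, 509424 bp on chromosome 4, and 103 of its 107 peaks overlapped no other gene.

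SLC7A5, which forms LAT1 with the heavy chain SLC3A2, had 4 to 11 peaks per 786-O library (median 7.5) and 1 to 4 in RPTEC (median 2). Its mean was 2.34 ± 0.673 against 0.847 ± 0.440 per 10000 (SD, n = 8 each; adjusted p = 0.0169 by exact permutation test), and the groups met at 4 peaks. Every library had a peak at its end (chromosome 16, 87830498 to 87831586), and the region next to it, from 87832149 to 87832750, in 7 of 8 786-O and 1 of 8 RPTEC libraries (adjusted p = 0.215 by Fisher's exact test). Its start was called in 6 of 8 RPTEC and 8 of 8 786-O libraries (87869113 to 87869732), and most of the further 786-O summits lay between the ends. SLC3A2 had a peak in 7 of 8 RPTEC and 8 of 8 786-O libraries.

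**Figure D3:**
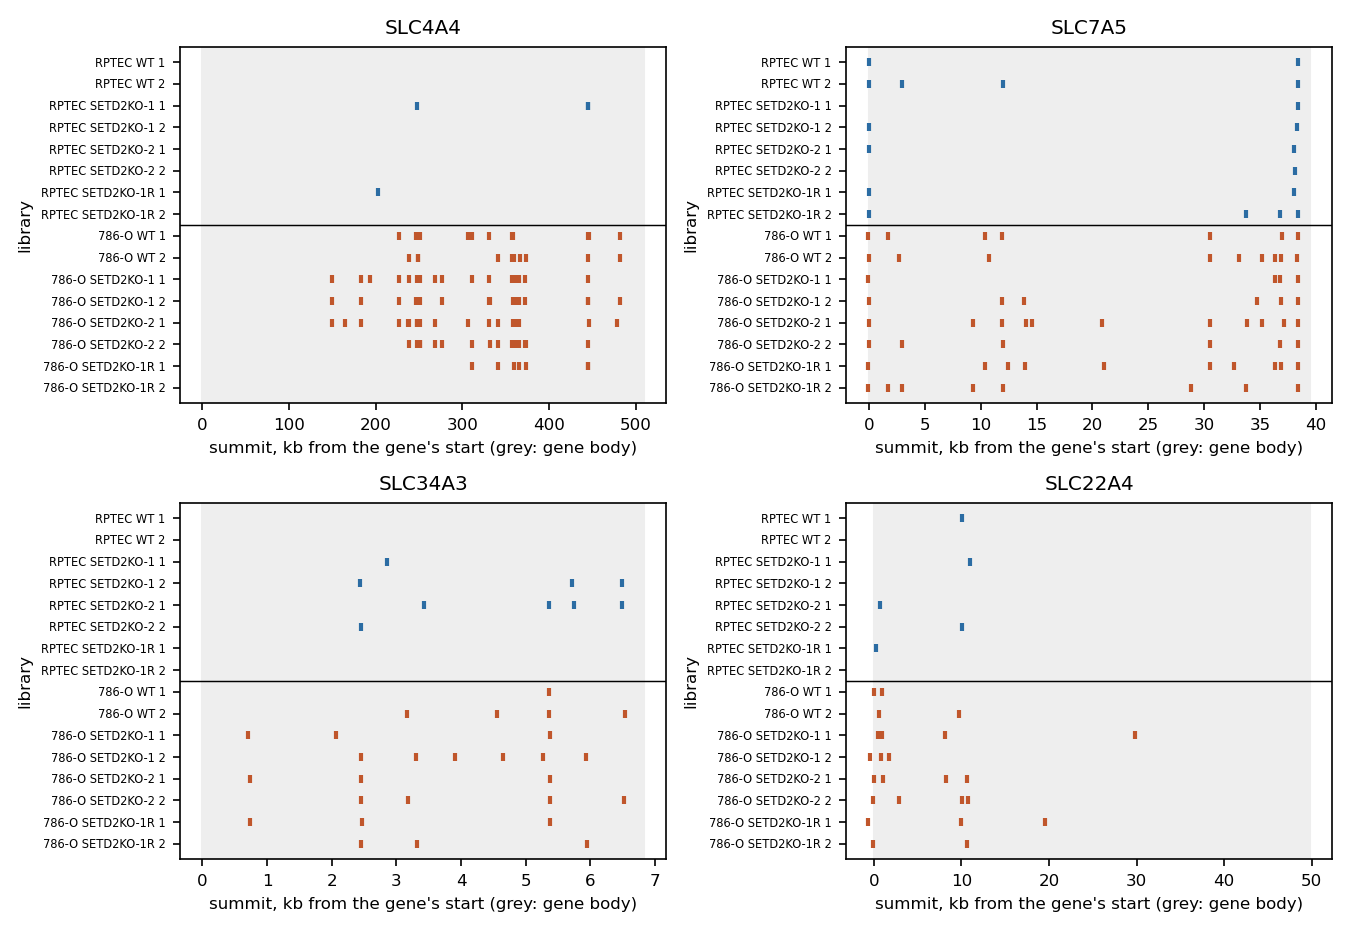
Summits of listed peaks (ticks) in SLC4A4, SLC7A5, SLC34A3 and SLC22A4 by library (rows; blue RPTEC, orange 786-O), as distance from the gene's start in kb, with the gene body in grey. In SLC7A5 both cell lines have summits at the start and the end, with more between them in 786-O; in SLC4A4 the 7 786-O libraries with peaks share several positions, and in SLC34A3 the RPTEC summits are all in SETD2KO libraries.

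SLC22A4 (OCTN1, a carrier of ergothioneine) had 2 to 4 peaks per 786-O library (median 3) and 0 or 1 in RPTEC (median 1), groups that did not overlap; the means were 0.919 ± 0.282 and 0.252 ± 0.215 per 10000 (SD, n = 8 each; adjusted p = 0.00547 by exact permutation test). The 300-base window at its start was overlapped by a peak in all 8 786-O libraries, and the bases printed above in 7. The best peak of SLC22A4 in a 786-O library had a median percentile of 51.2 in its list by score, and with lists of equal length the adjusted p was 0.557. SLC17A9 had 0 to 6 peaks in 786-O (median 3) and none in RPTEC (adjusted p = 0.0218), and SLC22A23, an orphan of the organic ion family, 1 to 5 (median 2.5) and 0 to 2 (median 0; adjusted p = 0.0314), both by exact permutation test. SLC5A2 had an adjusted p of 0.00547 on this measure. With lists of equal length 3 carriers were called higher in RPTEC and 1 in 786-O, and the calls of SLC5A2, SLC4A4, SLC7A5, SLC22A4, SLC22A23 and SLC9A7 were lost. With the lower-scored 50% of every list left out, those of SLC16A5 (adjusted p = 0.151 by exact permutation test) and SLC17A9 (0.0781) were among the 7 lost, and those of SLC4A4, SLC5A10 and SLC6A16 held. That of SLC22A23 was also lost in 7 of the 16 fits without 1 library and on its 18 of 28 peaks that overlap no other gene of the table (adjusted p = 0.135 by exact permutation test), which appears to place a gene of an alternate contig inside it.

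**Figure D4:**
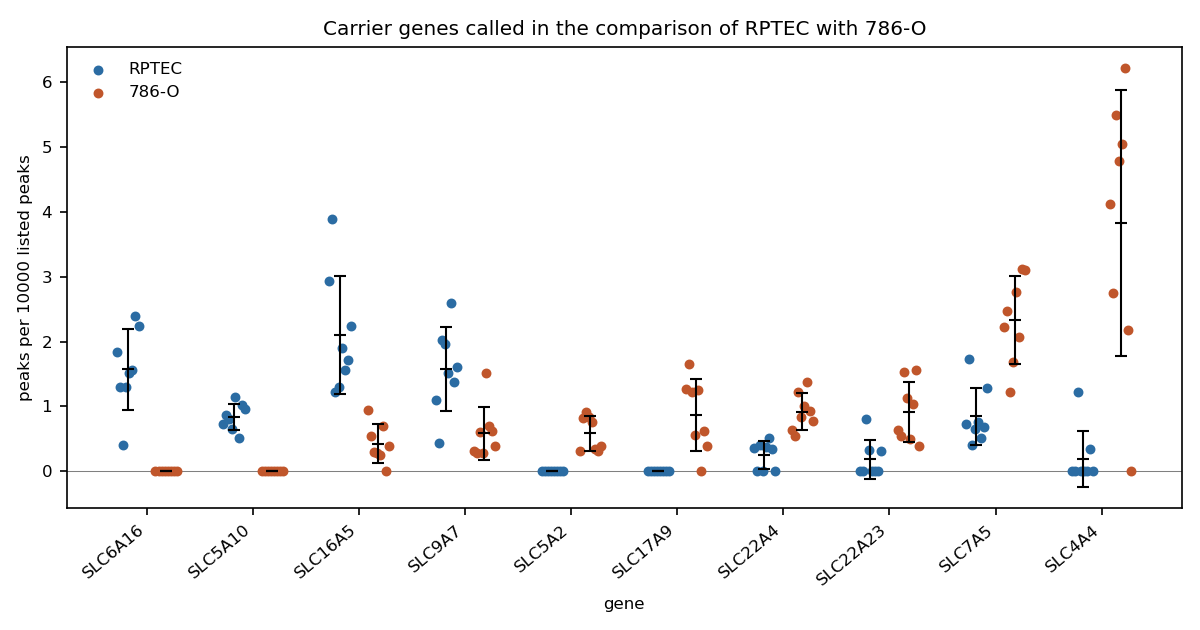
Peaks per 10000 listed peaks in the 10 carrier genes called between the cell lines, 1 point per library (8 per cell line), with the mean and SD in black. SLC6A16, SLC5A10, SLC16A5, SLC5A2 and SLC22A4 have groups that do not overlap; in the other 5 genes they do.

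Other named carriers were not called. SLC13A3, the basolateral dicarboxylate carrier, had a peak in 2 of 8 RPTEC and 7 of 8 786-O libraries (adjusted p = 0.470 by Fisher's exact test, and 0.0828 for its number of peaks). SLC22A5, the carnitine carrier OCTN2, had one in 5 and 8, SLC4A7 (NBCn1) in 8 and 7, SLC7A11 (the cystine-glutamate exchanger xCT) in 6 and 4, and SLC17A1, a urate and phosphate carrier, in 6 and 8. SLC16A1 had 1 to 4 peaks in RPTEC (median 2) and 1 to 3 in 786-O (median 2), and SLC16A3, which exports lactate, 2 to 7 (median 5.5) and 3 to 7 (median 5); neither difference passed (adjusted p of 0.506 and 0.351 by exact permutation test).

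Of 27 partner genes of these carriers (heavy chains, chaperones, scaffolds, the sodium pump, carbonic anhydrases and other solute carriers), 21 had a peak in at least 4 libraries. By number of peaks 4 of these were higher in 786-O and 0 in RPTEC, where 4.06% and 4.76% of all genes tested were. They were PDZK1, a scaffold of luminal carriers (1 of 8 RPTEC and 8 of 8 786-O libraries, adjusted p = 0.00547), CA12, a carbonic anhydrase (6 and 8 libraries, adjusted p = 0.00547), BSG, the chaperone of the lactate carriers (7 and 8 libraries, adjusted p = 0.0331), and SLC12A7, a potassium-chloride cotransporter (3 and 8 libraries, adjusted p = 0.0390), all by exact permutation test. ATP1B1, the beta chain of the sodium pump, had a peak in all 16 libraries, and its means differed by 0.00676 peaks per 10000.

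The position of the peaks along the gene was read from their summits. Among the 86 carriers with a known strand, 22.9% ± 3.97 of RPTEC summits and 22.7% ± 5.42 of 786-O summits (SD, n = 8 libraries each) fell in the last 10% of the gene body, beside 21.5% ± 1.25 and 20.2% ± 1.17 over all genes with a strand. In the first 10% fell 15.2% ± 4.50 and 10.9% ± 2.40, beside 12.6% ± 2.08 and 13.7% ± 1.47. The carriers and all genes lay within 1 SD of the carriers' libraries of each other, apart from the first 10% in 786-O, where the carriers were lower by more than that. SLC4A4 alone held 0 to 20 peaks per 786-O library (median 15), and none of their summits lay in its first 10%. The nearest was 149.703 kb from the start of this gene of 509.424 kb. The share without SLC4A4 was not tested. The carriers' peaks ranked in the middle of their lists, with median percentiles of 41.2 to 57.0 in RPTEC and 42.5 to 50.6 in 786-O.

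The other comparison asked whether SETD2 loss moved peaks into or out of the carriers. With SETD2KO set against SETD2-expressing libraries within each cell line, 0 of 48 carriers were called by the number of libraries with a peak and 0 of 48 by the number of peaks, and 0 of 123 carrier regions were called (exact tests stratified by cell line, with Benjamini-Hochberg adjustment; the smallest p such a test on presence can give here is 0.000408). Over all genes and regions tested, 0.0% were called in either direction by each of these tests. At an unadjusted p under 0.05, 2 carriers were higher in SETD2KO and 1 in SETD2-expressing libraries by number of libraries, 8 and 3 by number of peaks, and 6 and 0 regions. The shares over all features at that p were 1.11% and 0.847% of genes by number of libraries, 4.47% and 6.01% by number of peaks, and 1.82% and 0.841% of regions. Whatever the test, 29 of 48 carriers had more peaks per 10000 in SETD2KO libraries and 19 fewer, where the shares over all genes tested were 43.6% and 56.4%.

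In RPTEC, SETD2KO libraries had a peak in 38, 33, 34 and 29 carriers (SETD2KO-1 replicates 1 and 2, then SETD2KO-2 replicates 1 and 2), WT libraries in 26 and 21 and SETD2KO-1R libraries in 31 and 30. In 786-O the SETD2KO counts were 38, 41, 40 and 37, and all 4 SETD2-expressing libraries had 36. The 786-O groups did not overlap and the RPTEC groups did. Over all protein-coding genes the groups overlapped in both, with peaks in 9048 to 10265 genes in SETD2KO and 8950 to 10102 in SETD2-expressing libraries of 786-O, and in 7739 to 9446 and 8428 to 9670 in RPTEC. Lists of the SETD2KO and SETD2-expressing libraries held means of 25185 and 27681 peaks in RPTEC, and of 34225 and 31411 in 786-O.

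SLC34A3 is the sodium-phosphate cotransporter NaPi-IIc of the proximal tubule. In RPTEC it had 1, 3, 4 and 1 peaks in the 4 SETD2KO libraries and 0 in each of the 4 SETD2-expressing libraries. In 786-O it had 3, 6, 3 and 4 peaks in SETD2KO libraries, 1 and 4 in WT and 3 and 3 in SETD2KO-1R, so groups overlapped there. Per 10000 the means were 0.857 ± 0.508 and 0 in RPTEC and 1.19 ± 0.427 and 0.880 ± 0.387 in 786-O (SD, n = 4 each; p = 0.0114 by exact permutation test within cell lines, adjusted p = 0.359). Its region on chromosome 9 from 137231529 to 137233311, which no other gene overlaps, was called in 4 of 4 RPTEC SETD2KO and 0 of 4 SETD2-expressing libraries and in 7 of 8 786-O libraries. The region that follows, from 137233542 to 137236562, was called in 2 RPTEC libraries, both SETD2KO, and in 8 of 8 786-O libraries.

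SLC16A12, a monocarboxylate family carrier of creatine, also separated the RPTEC groups, with 1, 3, 2 and 1 peaks in SETD2KO and 0 in each SETD2-expressing library. In 786-O it had 1 peak in 1 SETD2KO library and 2 and 1 peaks in 2 SETD2-expressing ones. These 2 genes are the carriers with a peak in all 4 RPTEC SETD2KO libraries and no SETD2-expressing one, a pattern of 0.544% of all genes tested, and 0 carriers had the opposite one (0.415% of genes). In 786-O the first pattern held for SLC17A4 (0.458% of genes) and the opposite one for 0 carriers (0.302%). SLC17A4, a urate and organic anion carrier, had 1, 1, 1 and 2 peaks in SETD2KO and 0 in SETD2-expressing 786-O libraries and none in RPTEC, but the whole gene lies within SLC17A1. SLC17A1 itself had 2, 4, 3 and 4 peaks in the 786-O SETD2KO libraries and 1 in each of the SETD2-expressing ones, and in RPTEC 1 in each SETD2KO and each WT library and 0 in both SETD2KO-1R libraries (p = 0.00327 by exact permutation test within cell lines, adjusted p = 0.221).

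Of carrier regions, 2 of 123 were called in all 4 SETD2KO and no SETD2-expressing library of RPTEC (0.477% of all regions tested) and 3 of 123 in 786-O (0.960%), and 0 had the opposite pattern in either (0.361% and 0.302%). Beside the SLC34A3 region, the RPTEC one was in SLC9A7 on the X chromosome, from 46647995 to 46648365. The 3 of 786-O were 2 regions of SLC4A4 on chromosome 4, from 71393575 to 71394734 and from 71423711 to 71424664, and 1 of SLC13A4, a sulphate carrier, on chromosome 7 from 135705476 to 135706177, where LOC105375521 also lies. In the first SLC4A4 region, SETD2KO-1 replicate 1 had a summit 330.943 kb from the gene's start. WT replicate 1 had one close by but outside that region, at 330.162 kb.

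**Figure D5:**
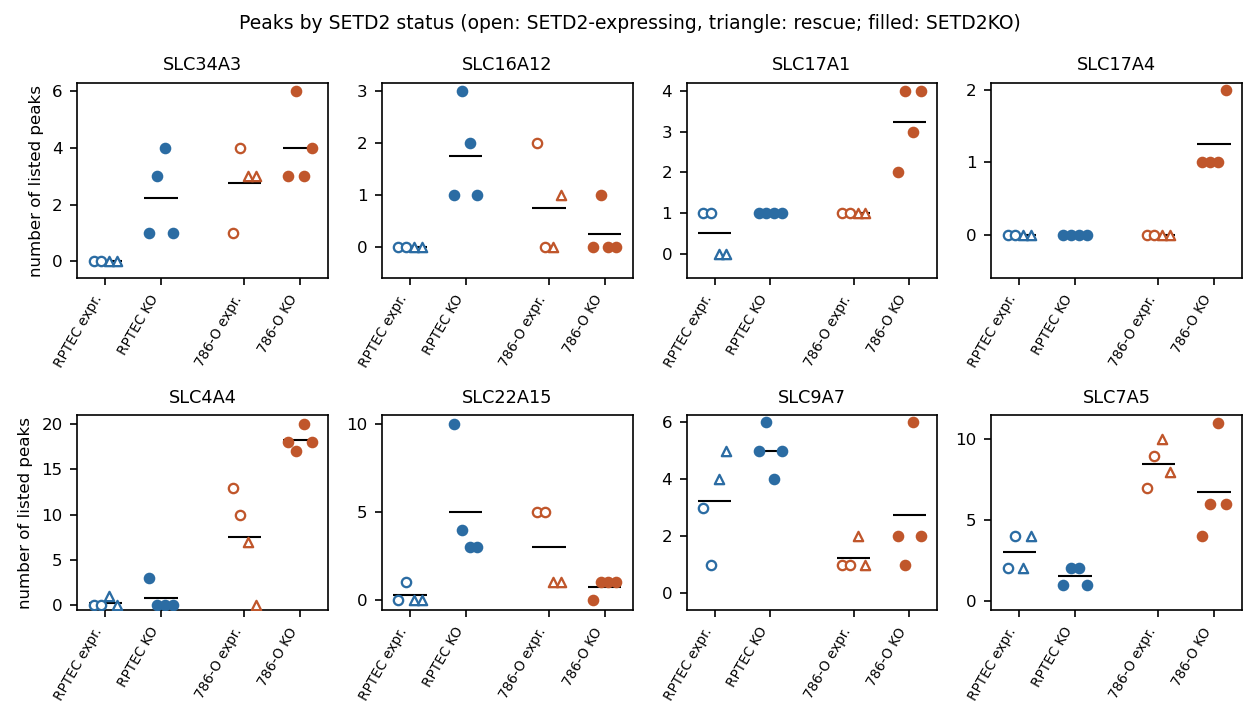
Number of listed peaks in 8 carrier genes by SETD2 status in each cell line (blue RPTEC, orange 786-O); each point is 1 library, open for SETD2-expressing (triangles are SETD2KO-1R) and filled for SETD2KO, and bars are means of 4. SLC34A3 and SLC16A12 have peaks in all 4 RPTEC SETD2KO libraries and none of the SETD2-expressing ones, and SLC22A15 moves in opposite directions in the 2 cell lines.

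SLC4A4 had its highest counts in the SETD2KO libraries of 786-O. These had 18, 17, 20 and 18 peaks, WT had 13 and 10, and SETD2KO-1R had 7 and 0, so that both WT and both rescue libraries lay below every SETD2KO library (5.39 ± 0.631 against 2.26 ± 1.72 per 10000, SD, n = 4 each; p = 0.0143 by exact permutation test within cell lines, adjusted p = 0.359). In RPTEC it had 3 peaks in 1 SETD2KO library and 1 in 1 SETD2KO-1R library. SLC7A5 ran the other way in 786-O, with 4, 6, 11 and 6 peaks in SETD2KO, 7 and 9 in WT and 10 and 8 in SETD2KO-1R libraries, groups that overlapped through 1 SETD2KO library (p = 0.0155 over both cell lines by exact permutation test, adjusted p = 0.374).

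SLC22A15, an organic ion carrier, had 10, 4, 3 and 3 peaks in the RPTEC SETD2KO libraries, 0 and 1 in WT and 0 and 0 in SETD2KO-1R. In 786-O it had 0, 1, 1 and 1 in SETD2KO, 5 and 5 in WT and 1 and 1 in SETD2KO-1R, so in 786-O the WT libraries were high and the SETD2KO-1R libraries lay with the SETD2KO ones. The difference between SETD2KO and SETD2-expressing libraries was 1.91 peaks per 10000 in RPTEC and -0.696 in 786-O. That was the smallest p among the carriers for a difference between the cell lines (p = 0.000816, adjusted p = 0.525, by exact permutation test within cell lines), and 0 genes of 11574 passed that test after adjustment, with 785 at an unadjusted p under 0.05. The gene was chosen after its values were seen.

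By number of libraries, the largest gains over both cell lines were of 4 libraries, among them those of SLC34A3, SLC17A4 and SLC7A11, followed by 3 libraries in SLC16A12 and in 4 other carriers. SLC7A11 had a peak in 4 of 4 SETD2KO and 2 of 4 SETD2-expressing RPTEC libraries, and in 3 and 1 of 786-O. Among the losses, SLC22A5 had a peak in 1 of 4 SETD2KO and 4 of 4 SETD2-expressing RPTEC libraries and in all 8 of 786-O, and SLC16A13, a monocarboxylate family member, in 3 and 3 of RPTEC and 1 and 4 of 786-O. Of the 4 carriers that lost 2 libraries, SLC4A11 and SLC22A11 had peaks in 2 SETD2-expressing RPTEC libraries and in both 786-O SETD2KO-1R libraries respectively and in no other. None of those tested passed after adjustment; SLC4A11, SLC22A11 and 2 of the carriers that gained 3 libraries had a peak in fewer than 4 libraries and were not tested.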

How the data were processed

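MeRIP-seq was run on 32 samples, an IP and an Input for each of 16 cultures, and the 16 IP peak lists were used here. Per the labels and the study's methods, the authors aligned reads (STAR; build hg38), normalized them to RNA of E. coli added as a spike-in, and ran MACS2 on each IP with its Input. The deposited lists give each peak a position, a whole-number score of unstated scale, used here only to rank peaks within a list, and a summit; they hold no strand and no counts. SETD2KO-1 and SETD2KO-2 are the clones labelled cl1 and cl2.

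Gene bodies came from RefSeq (GRCh38.p14, 59679 genes). Peaks overlapping in any list were merged into regions. Genes or regions with a peak in at least 4 libraries were tested: between the cell lines by two-sided Fisher's exact test on libraries with a peak and exact permutation of peaks per 10000 listed peaks, and by SETD2 status by the same tests stratified by cell line, with Benjamini-Hochberg adjustment over all features and a threshold of 0.05 (Python 3.11.15, NumPy 2.4.6, SciPy 1.17.1, pandas 2.3.3). The tests were checked on simulated data. Carriers were named when called between the cell lines, from a fixed list of 28 tubule carriers, by the largest SETD2 differences in libraries (ties by symbol), and by regions that separated groups fully. The genes and lists were chosen with earlier results of these data known. A few genes counted here are not reported by name. Alternatives were other overlap rules, filters, list lengths and libraries. One alternative, peaks that overlap no other protein-coding gene, was added after seeing the data.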

Additional observations from a re-analysis of the deposited data

Results flagged for a closer look

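In 65 groups of 8 libraries with any spread, 5 held a library whose gap to the next, as a share of the group's range, passed Dixon's limit for 8 values. Chance flags about 1 group in 20 for continuous values, a rate that does not hold for small whole counts, where a lone peak is enough. SLC22A15 had 10 peaks in RPTEC SETD2KO-1 replicate 1, where the other RPTEC libraries had 0 to 4. SLC9A7 had 6 peaks in 786-O SETD2KO-2 replicate 1, the longest list of all, and 1 or 2 in the other 786-O libraries. SLC4A4 had 3 peaks in RPTEC SETD2KO-1 replicate 1 and 0 or 1 in the other RPTEC libraries. SLC4A7 had 4 peaks in 786-O WT replicate 2 and 0 or 1 in the others. SLC22A2 had 1 peak in RPTEC SETD2KO-2 replicate 1 and none in any other library.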

How the results depend on the processing

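Between the cell lines, 3 carriers were called by libraries with a peak, 10 by peaks per gene and 1 as a region. By libraries, 0 carriers were called on peaks that overlap no other gene (also 0 where the other gene had to code for protein, an alternative added after seeing the data), and 1 on the upper 50% of each list by score. By peaks per gene, 4 carriers were called with lists trimmed to equal length and 3 on the upper 50%, and as regions 0 were called in both. The cause was not tested, but fewer peaks were compared. Leaving out 1 library at a time gave 3 to 6 carriers by libraries, 8 to 12 by peaks per gene and 1 to 11 regions. By libraries the count was 5 without RPTEC WT replicate 2, RPTEC SETD2KO-1R replicate 2, 786-O WT replicate 1 or 786-O SETD2KO-1R replicate 2, and 6 without 786-O WT replicate 2. It was 2 regions without RPTEC SETD2KO-1 replicate 2, RPTEC SETD2KO-2 replicate 2, 786-O SETD2KO-2 replicate 2 or 786-O SETD2KO-1R replicate 1, and 11 without 786-O SETD2KO-1R replicate 2. Other overlap rules, filters, merging and unscaled counts left these counts within 1.5 times.

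For SETD2KO against SETD2-expressing libraries, 0 carriers and 0 carrier regions were called under every alternative run, and the smallest adjusted p over all features was 0.124. The tests of presence in each cell line alone, whose smallest possible p is 0.0286 before adjustment, and those with WT as the sole control, on fewer libraries, say nothing about stability. SLC22A15 changed direction by libraries with a peak in 786-O alone (adjusted p = 1.0 by Fisher's exact test).

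With replicate number as a replicate block, 3 carriers were called by libraries, 9 by peaks per gene (SLC9A7 was lost) and 1 as a region between the cell lines, and 0 by SETD2 status. Replicate 1 minus replicate 2 differences of the lines correlated from -0.345 to 0.313 across genes, over 0.1 in 6 of 28 pairs of lines. Being of mixed sign, these values cannot decide whether libraries with the same replicate number were handled together.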
